A study of Mus musculus with 12 samples.

Results

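Fos, Fosb, Fosl1, Fosl2, Jun, Junb, Jund, Atf3, Batf and Maff encode AP-1, ATF and small Maf transcription factors. They were found by the array platform's gene symbol, and each was read from its brightest probe set that carries no other symbol. All 10 were measured, among 18193 genes in all. Fosl1, Fosl2, Jun and Jund had a further probe set, which served as a check.

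The cells were macrophages grown from C57Bl/6 mouse bone marrow with macrophage colony-stimulating factor (M-CSF), and the labels name no gene alteration in any group. Lipopolysaccharide (LPS), the bacterial cell wall component sensed by Toll-like receptor 4, was given at 100 ng/ml in an early phase of 18 h, in a late phase, in both or in neither. A medium change and a rest of 2 h lay between the phases. Restimulated cells received LPS in both phases, LPS once cells only in the late phase, pretreated cells only in the early phase, and untreated cells in neither. Each group had 3 biological replicates, lettered A, B and C, and each of the 12 cultures was measured on its own array. The sources used here do not give the length of the late phase. The series asks how cells that have met LPS respond to it when they meet it again, a state called LPS tolerance.

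AP-1 is a family of dimers built from basic leucine zipper (bZIP) proteins. Jun proteins pair with each other or with Fos proteins, while Fos proteins need a Jun partner, and the dimers bind the sequence known as the TPA response element. ATF and CREB proteins favour the closely related cyclic AMP response element (CRE), and small Maf proteins, which lack a transactivation domain, pair with other bZIP proteins at Maf recognition elements. In macrophages Toll-like receptor signals reach these genes through MAP kinases and NF-kappaB, and several of them are immediate-early genes whose transcripts come and go quickly.

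All 7 macrophage markers examined, among them Csf1r, Adgre1 and Mertk, were measured at a mean intensity of at least 958.9 units. No B cell or erythroid marker reached a mean of 50 units, and of the T cell and dendritic cell lists only Cd4 and Flt3 did. Of the neutrophil list S100a8 (mean 2224), S100a9 (532.2), Ngp (240.4) and Camp (114.6) did, while Mpo (23.3) and Elane (25.9) did not. Sums over that list are thus mostly S100a8. Collagen genes of the fibroblast list differed between the replicate letters, as given further down. The restimulated C array stood apart, with a mean intensity of 246.7, against 310.04 to 316.98 on the other 11 arrays. Members with the largest gap between that array and the mean of restimulated A and B were Jun, at -0.98 on the log2 scale, and Fosl1, at -0.51.

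LPS moved these genes in opposite directions in cells that had not met it before. Maff and Batf rose most, Junb and Fosl2 rose less, Fos and Jun fell, and Fosb, Fosl1, Jund and Atf3 were not called. A gene was called at a limma adjusted p under 0.05 over all genes and a change of at least 2-fold. In this comparison of LPS once with untreated cells, 4 of the 10 were called higher and 2 lower, where 3.90% of all genes were called higher and 9.10% lower. The median log2 change of the 10 was 0.48, beside 0.04 over all genes. With the arrays scaled to a common 75th percentile instead of used as deposited, 1079 genes of the whole array were higher and 1039 lower, in place of 709 and 1655, and Fosl1 joined the 6 members called. The 7 macrophage markers summed to between 43210 and 45130 units in LPS once cells, against 51870 to 53120 in untreated cells. The 6 measured neutrophil markers summed to 2318 to 4542 units in restimulated, 2213 to 5322 in LPS once and 2429 to 4652 in pretreated cells, against 479.8 to 4093 in untreated cells, and the untreated array was the lowest within each replicate letter. The part of either list in the results was not tested. In such bulk samples a smaller share of cells carrying a transcript and less transcript per cell cannot be told apart.

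**Figure D1:**
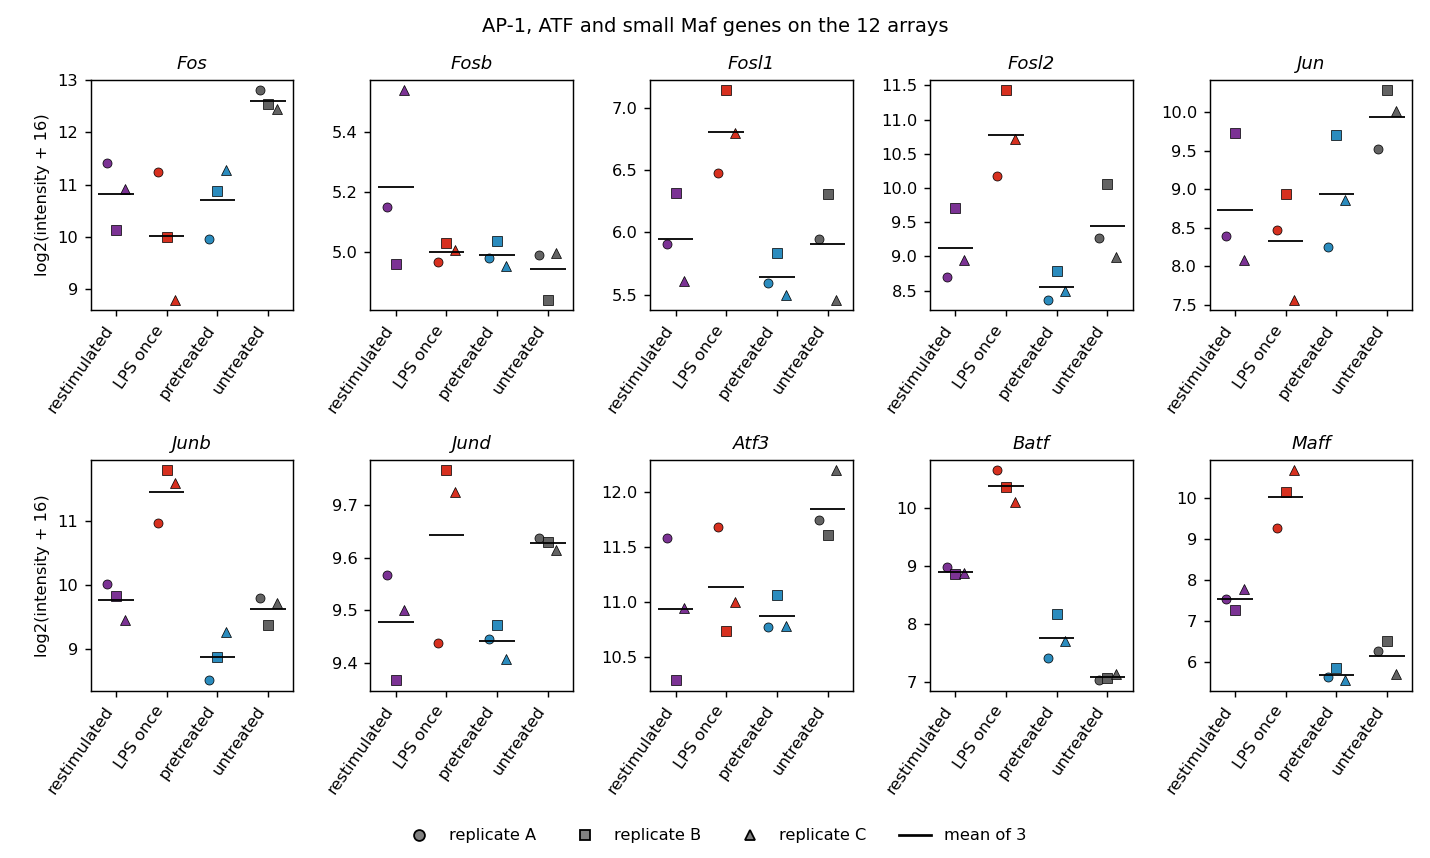
Intensity of each gene on every array as log2(intensity + 16), with restimulated, LPS once, pretreated and untreated cells from left to right, marker shapes for replicates A, B and C, and a line at the mean of the 3. Batf and Maff are highest in LPS once cells and intermediate in restimulated cells, Fos is highest in untreated cells, and the Fosb and Jund axes span less than 1 log2 unit.

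Fos, the founding AP-1 gene and a classical immediate-early gene, had intensities of 2712, 1111 and 1910 in restimulated cells, 2410, 1007 and 428.4 in LPS once cells and 981.0, 1871 and 2456 in pretreated cells, against 7143, 5983 and 5542 in untreated cells. The 3 untreated arrays lay above all 9 others, and the 3 LPS-exposed groups overlapped. The log2 change of Fos after LPS was -2.59 ± 0.58 (SE, with n = 3 in each group, adjusted p = 0.00688), so that it fell to a 6.00-fold lower level. The call held when any 1 of the 12 arrays was left out.

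The stretch around the Fos start is shown because it carries, in a window that held no TPA response element, letters of the CRE type. It covers chr12:85473640-85473939 of GRCm38.p6 on the plus strand, from 250 bases before the RefSeq start to 50 bases from it on, and capitals mark an NF-kappaB-type match 214 bases before the start, the CRE core TGACGT at 66 bases and TATAAA at 33 bases.
Fos: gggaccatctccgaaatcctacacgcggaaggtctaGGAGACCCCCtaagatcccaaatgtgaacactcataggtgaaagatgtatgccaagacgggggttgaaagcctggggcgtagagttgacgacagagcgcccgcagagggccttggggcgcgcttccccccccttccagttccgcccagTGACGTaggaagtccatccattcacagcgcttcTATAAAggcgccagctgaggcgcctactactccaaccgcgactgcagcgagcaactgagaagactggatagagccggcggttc

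Fosb, an AP-1 subunit that is also an immediate-early gene in many cell types, stayed between 12.6 and 30.5 units on all 12 arrays, below each array's median. Its log2 change after the first LPS was 0.06 ± 0.12 (adjusted p = 0.736), and its groups overlapped in every comparison. No detection calls were used here.

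Fosl1, known as Fra-1, had intensities of 44.0, 63.6 and 32.7 in restimulated cells, 73.1, 125.1 and 95.3 in LPS once cells and 32.3, 40.9 and 29.0 in pretreated cells, against 45.6, 63.2 and 27.9 in untreated cells. The LPS once arrays were the highest and did not overlap the other groups. Its log2 change of 0.90 ± 0.25 in LPS once cells against untreated cells had an adjusted p of 0.0203 but stayed under 2-fold. It passed 2-fold under 5 alternatives, with quantile normalization, 75th percentile scaling or a pseudocount of 1, and without LPS once A (1.07) or untreated B (1.10). The dimmer second probe set gave 0.34 ± 0.19 (adjusted p = 0.188).

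Fosl2, or Fra-2, a partner of Jun proteins that lacks a strong activation domain, had 399.8, 821.0 and 477.3 units in restimulated cells, 1144, 2743 and 1663 in LPS once cells and 313.0, 424.5 and 346.1 in pretreated cells, against 597.9, 1054 and 494.4 in untreated cells. Every LPS once array was above every array of the other groups. Fosl2 rose by 1.33 ± 0.38 after the first LPS (adjusted p = 0.0217). With the replicate letter as a block the SE was 0.17 and the limma adjusted p 0.000806. In the fit with no block the call was lost without untreated A (adjusted p = 0.0704), untreated C (0.0812), LPS once B (0.0747) or LPS once C (0.0534). The second probe set gave 0.97 ± 0.15, under 2-fold at an adjusted p of 0.00101.

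Jun, the partner that AP-1 dimers are built around, had 321.7, 830.9 and 255.6 units in restimulated cells, 339.4, 476.8 and 173.5 in LPS once cells and 289.1, 819.8 and 447.8 in pretreated cells, against 717.3, 1232 and 1020 in untreated cells. The LPS once arrays lay below all untreated arrays, while the restimulated and pretreated arrays overlapped them through replicate B. Jun fell by a log2 change of -1.61 ± 0.52 (adjusted p = 0.0370), to a 3.06-fold lower level, and its second probe set gave -1.67 ± 0.41 (adjusted p = 0.0118). For the brighter probe set, the replicate letter as a block gave an SE of 0.31 and a limma adjusted p of 0.00471. In the fit with no block the call was lost without untreated A, B or C, LPS once A or C, or pretreated C. The adjusted p-values were 0.0512, 0.115, 0.0925, 0.0657, 0.134 and 0.0532 in that order.

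The Jun window is shown for its CRE-like octamer, the capitals TGACATCA 45 bases before the start. It lies at chr4:95052173-95052472 of GRCm38.p6 and is printed on the minus strand, the strand of the gene.
Jun: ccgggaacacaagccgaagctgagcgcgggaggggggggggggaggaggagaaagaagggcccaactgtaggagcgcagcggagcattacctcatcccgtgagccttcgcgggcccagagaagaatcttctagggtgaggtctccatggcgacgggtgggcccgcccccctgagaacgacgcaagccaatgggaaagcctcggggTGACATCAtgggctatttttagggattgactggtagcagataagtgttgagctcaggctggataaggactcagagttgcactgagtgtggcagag

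Junb, a Jun protein with weaker activating ability that can oppose Jun, had 1024, 896.9 and 683.2 units in restimulated cells, 2010, 3551 and 3105 in LPS once cells and 348.7, 451.4 and 597.7 in pretreated cells, against 876.5, 646.5 and 830.2 in untreated cells. LPS once arrays were highest and pretreated arrays lowest, with no overlap between them and the other groups. Junb rose by 1.83 ± 0.25 after the first LPS (adjusted p = 0.000513), a 3.56-fold increase, and the call held when any 1 array was left out.

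Jund, the Jun protein usually present in resting cells, varied little: it had 742.7, 644.8 and 708.1 units in restimulated cells, 677.5, 854.0 and 829.3 in LPS once cells and 681.5, 694.4 and 663.5 in pretreated cells, against 780.7, 776.1 and 767.7 in untreated cells. The LPS once arrays fell on both sides of the untreated arrays. Its log2 change after the first LPS was 0.01 ± 0.09 (adjusted p = 0.909), and none of its 5 comparisons was called. The second probe set of Jund was dim, between 15.01 and 27.08 units.

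Atf3, a stress-induced ATF known as a repressor of Toll-like receptor target genes, had 3039, 1235 and 1960 units in restimulated cells, 3266, 1688 and 2027 in LPS once cells and 1734, 2126 and 1740 in pretreated cells, against 3406, 3096 and 4669 in untreated cells. The LPS once A array reached into the untreated range, and the restimulated and pretreated arrays lay below it. The log2 change of Atf3 in LPS once cells against untreated cells was -0.71 ± 0.33 (adjusted p = 0.128), and it was called under none of the alternatives run.

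The Atf3 window is shown beside that of Fos because its CRE core, printed as the reverse complement ACGTCA, lies 8 bases before the start. It covers chr1:191183284-191183583 of GRCm38.p6 on the minus strand.
Atf3: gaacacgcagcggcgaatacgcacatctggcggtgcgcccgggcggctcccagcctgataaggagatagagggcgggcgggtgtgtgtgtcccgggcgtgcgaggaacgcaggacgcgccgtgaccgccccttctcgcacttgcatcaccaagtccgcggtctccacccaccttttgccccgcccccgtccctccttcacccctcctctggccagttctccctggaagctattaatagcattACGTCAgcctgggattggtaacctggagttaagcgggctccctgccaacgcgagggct

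Batf, a small bZIP protein that pairs with Jun proteins and works with IRF4 or IRF8 in immune cells, had 486.2, 446.6 and 450.7 units in restimulated cells, 1580, 1297 and 1083 in LPS once cells and 153.5, 270.5 and 193.5 in pretreated cells, against 114.5, 117.4 and 125.2 in untreated cells. No 2 groups overlapped, and their order was LPS once, restimulated, pretreated and untreated. Batf rose by 3.29 ± 0.18 after the first LPS (adjusted p = 5.03e-06), a 9.79-fold increase.

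Maff, a small Maf protein, had 170.6, 138.9 and 204.6 units in restimulated cells, 599.5, 1118 and 1606 in LPS once cells and 34.4, 42.0 and 31.4 in pretreated cells, against 60.9, 75.1 and 36.8 in untreated cells. The LPS once arrays lay above all restimulated arrays, and these above all pretreated and untreated arrays, which overlapped each other. Maff rose by 3.86 ± 0.32 after the first LPS (adjusted p = 3.33e-05), a 14.5-fold increase. For both Batf and Maff the call held under all 22 alternatives run.

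The windows of the 2 genes that rose most are shown together. Batf lies at chr12:85686470-85686769 of GRCm38.p6 on the plus strand, with the CRE core in capitals 98 bases before its start. Of 3 Maff windows, at different RefSeq starts, the one printed lies at chr15:79347270-79347569 on the plus strand and holds the full CRE TGACGTCA 29 bases before its start.
Batf: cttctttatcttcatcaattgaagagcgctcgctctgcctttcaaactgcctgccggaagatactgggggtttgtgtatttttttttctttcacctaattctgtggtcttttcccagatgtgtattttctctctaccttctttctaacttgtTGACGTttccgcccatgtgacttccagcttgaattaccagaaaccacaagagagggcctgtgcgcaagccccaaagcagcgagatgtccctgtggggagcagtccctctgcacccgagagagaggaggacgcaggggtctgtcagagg
Maff: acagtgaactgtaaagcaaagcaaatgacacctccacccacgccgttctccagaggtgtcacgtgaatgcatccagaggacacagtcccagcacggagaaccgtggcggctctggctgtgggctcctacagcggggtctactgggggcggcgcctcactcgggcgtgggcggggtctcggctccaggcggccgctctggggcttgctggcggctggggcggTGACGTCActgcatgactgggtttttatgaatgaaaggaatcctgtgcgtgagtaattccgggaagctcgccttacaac

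In cells that had met LPS before, the same stimulus raised Maff and Batf again, but less. Restimulated cells were compared with pretreated cells for this second response. Of the 10 genes 2 were called higher and 0 lower by limma, beside 0.665% and 1.29% of all genes. At an unadjusted p under 0.05 they numbered 3 and 0, a threshold at which no share of all genes was counted. Maff rose by 1.84 ± 0.32 (adjusted p = 0.0169), a 3.58-fold increase, and Batf by 1.14 ± 0.18 (adjusted p = 0.0129), a 2.20-fold increase. Junb had a log2 change of 0.89 ± 0.25 with no overlap between the groups (adjusted p = 0.0861), and was called with quantile normalization (1.11) and 75th percentile scaling (1.14). The log2 changes of Fosl2, Fosl1 and Fosb were 0.57 ± 0.38, 0.30 ± 0.25 and 0.23 ± 0.12. Those of Fos, Atf3, Jund and Jun were 0.12 ± 0.58, 0.07 ± 0.33, 0.04 ± 0.09 and -0.20 ± 0.52, with overlapping groups. The sign for Jun was positive under quantile normalization (0.04) and 75th percentile scaling (0.04).

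Both second-response calls rested on particular arrays. Without pretreated A the change of Batf was 0.96 (adjusted p = 0.0384) and that of Maff 1.82 (0.0668), and without pretreated C they were 1.11 (0.0656) and 1.78 (0.0829). Without restimulated C, the array that stood apart, Maff changed by 1.72 (0.0573), and Batf kept its call. Both lost it when only the 6 arrays of the 2 groups were fitted (adjusted p = 0.147 for Batf and 0.0653 for Maff) and with a pseudocount of 64, where Batf changed by 0.98 and Maff by 1.23.

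**Figure D2:**
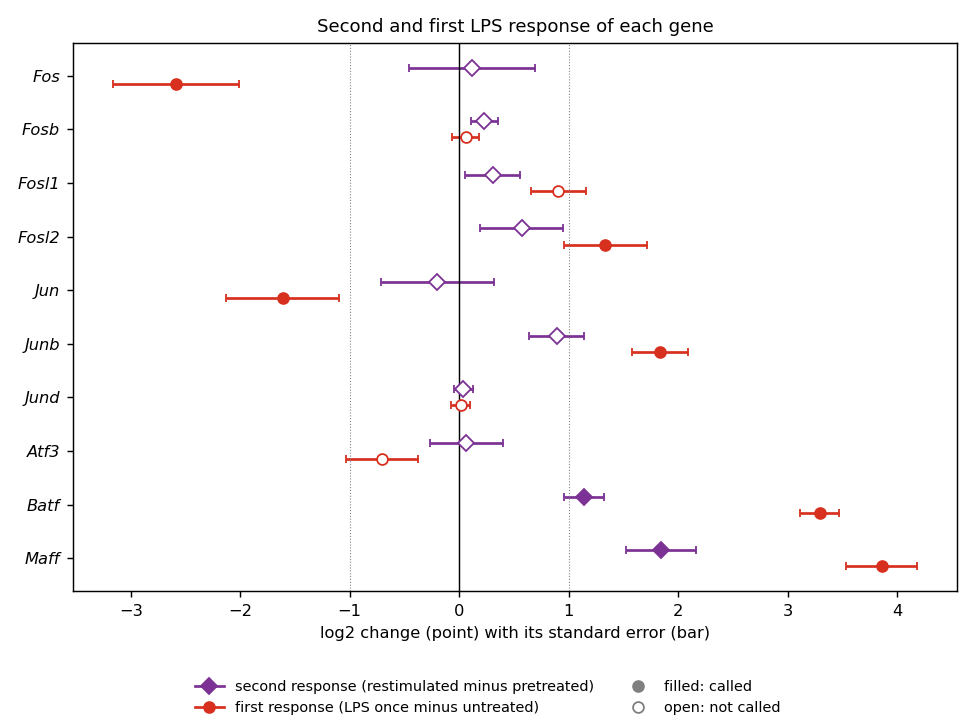
Log2 change of each gene in the second response (restimulated minus pretreated, diamonds) and the first response (LPS once minus untreated, circles), with standard errors, filled where called. Maff and Batf are called in both, at 1.84 and 1.14 in the second response and 3.86 and 3.29 in the first, and Fos and Jun lie near 0 in the second response.

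The difference between the responses was tested as the second minus the first. Of the 10 genes 0 were called higher and 2 lower, where 1.23% of all genes were higher and 1.44% lower. Limma gave 1 higher and 3 lower at an unadjusted p under 0.05, where no share of all genes was counted. For Batf the second response was smaller by a log2 difference of -2.15 ± 0.26 (adjusted p = 0.00311), and the call held when any 1 array was left out. For Maff it was smaller by -2.02 ± 0.46 (adjusted p = 0.0415), and with the replicate letter as a block the adjusted p was 0.0558. The call for Maff held without LPS once A and without restimulated C, and was lost without any other array, at adjusted p-values of 0.0647 to 0.105 and differences of -2.19 to -1.70. Within the letters the difference ran the same way for both genes, at -2.05, -2.61 and -1.80 for Batf and -1.11, -2.22 and -2.72 for Maff in A, B and C.

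Fos went the other way in the same test, by a log2 difference of 2.70 ± 0.81 between its responses (unadjusted p = 0.00804, adjusted p = 0.112). It was positive within each letter, at 3.01, 1.81 and 3.28, and passed the threshold without LPS once A (3.32, adjusted p = 0.0312). Jun had a difference of 1.41 ± 0.73 (adjusted p = 0.370), positive within each letter, and Junb of -0.94 ± 0.36 (adjusted p = 0.205).

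After pretreatment and rest, without new LPS, no member was called. Of the 10, 8 had a negative log2 change, and no share of all genes was counted by sign. Limma called 0 higher and 0 lower in pretreated against untreated cells, beside 0.291% and 0.308% of all genes. At an unadjusted p under 0.05 there were 1 and 4, and no share of all genes was counted at that threshold. The median log2 change of the 10 was -0.61, beside 0.02 over all genes. Fos had -1.89 ± 0.58, the lowest, at an adjusted p of 0.204, and its pretreated arrays lay below all untreated arrays. Jun, Atf3, Fosl2 and Junb had -1.001 ± 0.52, -0.97 ± 0.33, -0.89 ± 0.38 and -0.75 ± 0.25, with adjusted p-values between 0.257 and 0.508. Batf had 0.68 ± 0.18 (adjusted p = 0.142), with all pretreated arrays above all untreated arrays. The remaining log2 changes were -0.47 for Maff, -0.26 for Fosl1, -0.18 for Jund and 0.05 for Fosb. Untreated arrays served in this comparison as well as in the first response.

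When both groups had just received LPS, the earlier exposure went with lower levels of the genes that the first LPS had raised. Restimulated cells had lower Maff, Junb, Fosl2 and Batf than LPS once cells. Of the 10, 4 were called lower, where 3.18% of all genes were, and 0 higher, where 2.48% were. At an unadjusted p under 0.05 there were 0 higher and 5 lower, and no share of all genes was counted at that threshold. Maff fell by a log2 change of -2.49 ± 0.32 (adjusted p = 0.00103), Junb by -1.70 ± 0.25 (0.00217), Fosl2 by -1.66 ± 0.38 (0.0165) and Batf by -1.47 ± 0.18 (0.000759). In all 4 the restimulated arrays lay below every LPS once array. This comparison shares the LPS once arrays with the first response. Fosl1 had -0.86 ± 0.25 at an adjusted p of 0.0469, under 2-fold, and the groups did not overlap. It was called without LPS once A (-1.03) or restimulated B (-1.05).

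Fos, Jun, Fosb, Jund and Atf3 overlapped between restimulated and LPS once cells, with log2 changes of 0.81 ± 0.58, 0.41 ± 0.52, 0.22 ± 0.12, -0.16 ± 0.09 and -0.20 ± 0.33. The Fosl2 call was lost without LPS once B (-1.33, adjusted p = 0.0548) or restimulated A (-1.45, 0.0552), with the 6 arrays alone (0.0849) and in the second probe set (-0.97). Batf, Junb and Maff kept theirs when any 1 array was left out.

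**Figure D3:**
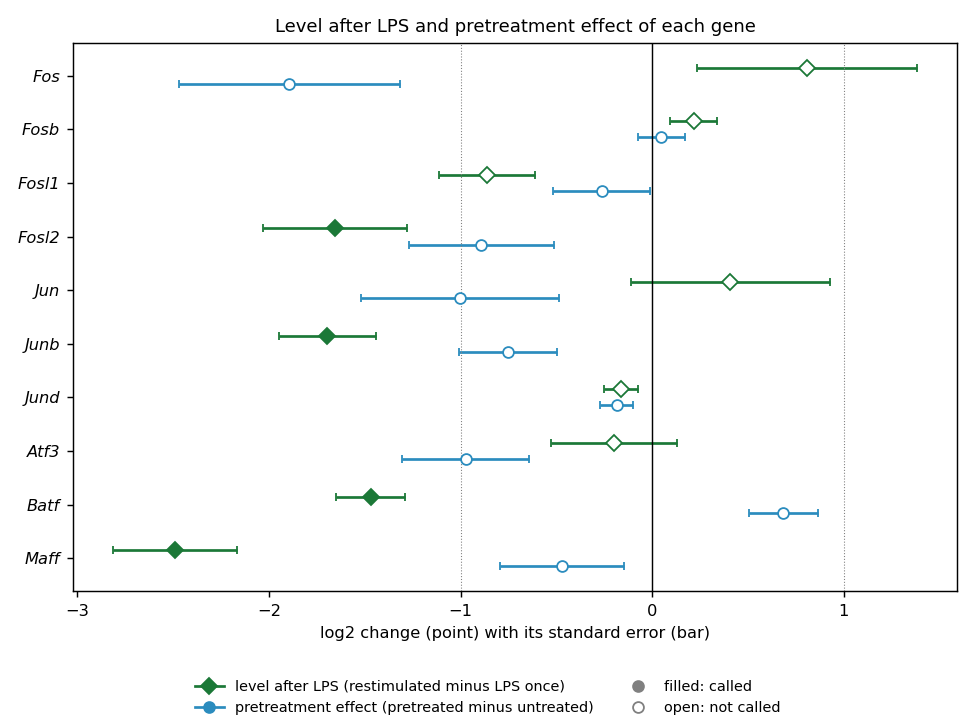
Log2 change of each gene for levels after LPS (restimulated minus LPS once, diamonds) and in the pretreatment effect (pretreated minus untreated, circles), with standard errors, filled where called. Maff, Junb, Fosl2 and Batf are called in the level after LPS, at -2.49, -1.70, -1.66 and -1.47, and none in the pretreatment effect, where Fos is lowest at -1.89.

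The order of the group means differed between the genes. On the log2 scale Batf and Maff had LPS once first, at 10.37 and 10.03, then restimulated, at 8.90 and 7.53. Junb and Fosl2 had the same top group, at 11.46 and 10.77. Below it, restimulated and untreated cells were next to each other and overlapped, with 9.77 and 9.63 for Junb and 9.12 and 9.44 for Fosl2, and pretreated cells were last at 8.88 and 8.55, apart from the rest for Junb and overlapping the restimulated arrays for Fosl2. For Fos, Jun and Atf3 the untreated group was at the top, at 12.60, 9.94 and 11.85, and the order of the 3 LPS-exposed groups was within their spread.

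The replicate letters carried differences of their own. In all 4 groups Jun, Fosl1 and Fosl2 each had their highest value in replicate B, a pattern found in 791 of 18193 genes, or 4.35%. The 5 fibroblast markers, Col1a1, Col1a2, Col3a1, Dcn and Pdgfra, summed to 4844 to 8006 units on the arrays of replicate B, 2388 to 5139 on those of A and 202.0 to 284.3 on those of C. Between the groups their sums overlapped, from 210.9 to 5152 in restimulated, 284.3 to 6422 in LPS once, 253.2 to 5139 in pretreated and 202.0 to 8006 in untreated cells. The neutrophil markers summed to 4093 to 5322 units in B, 479.8 to 2783 in A and 1827 to 3774 in C. Fosl2 was lower in A than in C in all groups but the untreated, and Jun in pretreated and untreated cells. Fosl1 was lower in A than in C only in LPS once cells. In the other groups it fell from B over A to C. The part of these markers in the levels of Jun, Fosl1 and Fosl2 was not tested.

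Within replicate C the first response was -2.45 for Jun, 1.34 for Fosl1 and 1.72 for Fosl2. These are log2 changes of 1 array, LPS once C, against 1 array, untreated C. Within B these were -1.34, 0.83 and 1.37, and within A -1.05, 0.53 and 0.92. The direction was the same in all 3 letters for each gene, and the change was largest in C for each, as it was for Fos and Maff. The level after LPS of Fosl2 was -1.48, -1.72 and -1.77 within A, B and C. For Fos the first response was -1.56, -2.55 and -3.64, for Junb 1.18, 2.43 and 1.88, for Batf 3.61, 3.30 and 2.96 and for Maff 3.00, 3.64 and 4.94.

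**Figure D4:**
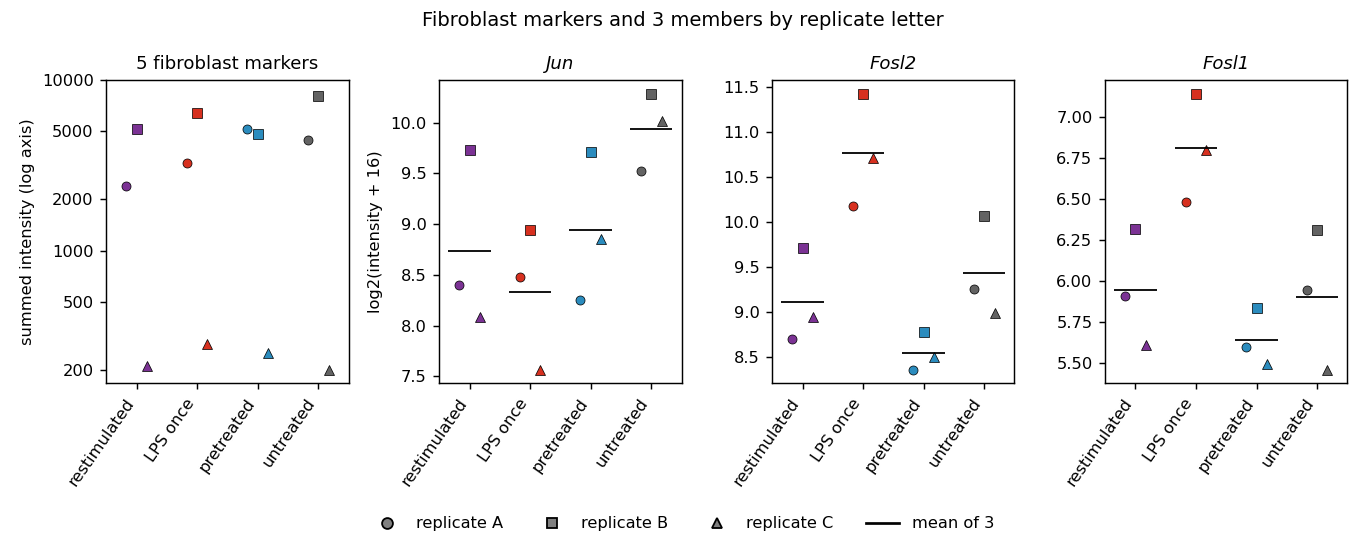
Summed intensity of the 5 fibroblast markers (log axis) and log2(intensity + 16) of Jun, Fosl2 and Fosl1 by group, with marker shapes for the replicates. Replicate C holds 202.0 to 284.3 marker units against at least 2388 in A and B, and replicate B is the highest of the 3 in every group for Jun, Fosl2 and Fosl1.

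Likeness of pattern was measured as the root mean square difference of log2 values over the 12 arrays, each gene centred on its own mean, among 8624 genes whose highest group mean reached 7. Values were not scaled, so genes with large changes or a wide spread can lie far from all others, and flat genes close. Maff was closest to Slc39a14, a zinc and iron transporter (0.31), and Abtb2 (0.39). Batf was closest to Car13, a carbonic anhydrase (0.25), and Gch1, the first enzyme of tetrahydrobiopterin synthesis (0.33). Junb was closest to Kpna3, an importin (0.26), and Sgms1, a sphingomyelin synthase (0.28), and Fosl2 to Rgs16 (0.35) and Bhlhe40, a basic helix-loop-helix repressor (0.35). For Fos, whose LPS once arrays had an SD of 1.22 on the log2 scale, the nearest were Bambi (0.69) and Otud1 (0.70). Jun was nearest to Klf4 (0.44) and Crem (0.44), and Atf3 to C3ar1, the C3a receptor (0.30), and Npepl1 (0.31). Fosl1 was nearest to Myef2 (0.16) and Sestd1 (0.19). Fosb and Jund varied so little that the nearest genes, Ggn and Plxnb1 for Fosb and Puf60 and Oga for Jund, were other flat profiles at 0.08 to 0.10.

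Among the members themselves the closest pair apart from the flat Fosb and Jund (0.21) was Fosl1 and Fosl2 (0.45), ahead of Fosl1 and Jund (0.46) and Fosl2 and Junb (0.49). Batf and Maff differed by 0.78 and Fos and Jun by 0.87. The farthest pair was Fos and Maff, at 2.56.

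Other bZIP genes, potential partners or competitors of AP-1, were followed as well. Of 25 measured, 4 rose and 2 fell after the first LPS, beside 3.90% and 9.10% of all genes, with a median log2 change of 0.18 beside 0.04 over all genes. Jdp2, a repressor that pairs with Jun, had 378.6, 459.6 and 528.8 units in restimulated cells, 3637, 3674 and 5627 in LPS once cells and 151.3, 365.8 and 332.7 in pretreated cells, against 285.4, 293.9 and 271.9 in untreated cells. Only the LPS once arrays were far from the rest, and Jdp2 rose by 3.82 ± 0.29 (adjusted p = 2.15e-05). Nfil3, a bZIP repressor active in immune cells, rose by 2.69 ± 0.37 and Batf2 by 1.94 ± 0.32, and Crem, which encodes CREB-type repressors and activators, fell by -2.04 ± 0.28. The counts are completed by Atf4 (1.16 ± 0.40, adjusted p = 0.0475) and Atf6 (-1.01 ± 0.15, a 2.02-fold lower level), named after their values were seen. The number that rose was 3 in place of 4 with a pseudocount of 64, and also without untreated A, B or C.

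The second LPS called 0 of the 25 in either direction, beside 0.665% of all genes higher and 1.29% lower. At an unadjusted p under 0.05, where no share of all genes was counted in any comparison, there were 2 higher and 5 lower. The largest log2 changes were -0.91 ± 0.22 for Batf3, and 0.86 ± 0.20 for Nfe2l2, the regulator of antioxidant genes that pairs with small Maf proteins. Without restimulated A both were called (-1.10 and 1.03). The second response was smaller than the first in Nfil3, by -3.52 ± 0.52 (adjusted p = 0.00796), and in Jdp2, by -3.09 ± 0.41 (adjusted p = 0.00544), with 0 called the other way. For this difference 1 was higher and 5 lower at an unadjusted p under 0.05. In this test 1.44% of all genes were called lower and 1.23% higher. Nfil3 and Jdp2 were also called lower in restimulated than in LPS once cells, by -3.37 ± 0.37 and -3.18 ± 0.29, beside 3.18% of all genes. Of the 25, 0 were called higher, where 2.48% of all genes were. At an unadjusted p under 0.05 there were 0 higher and 9 lower. Pretreatment called 0 of 25, beside 0.291% of all genes higher and 0.308% lower, with 3 higher and 4 lower unadjusted. Crem had -1.03 ± 0.28 (adjusted p = 0.158), and 0.0319 without restimulated C, and Atf5 had 0.85 ± 0.76.

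**Figure D5:**
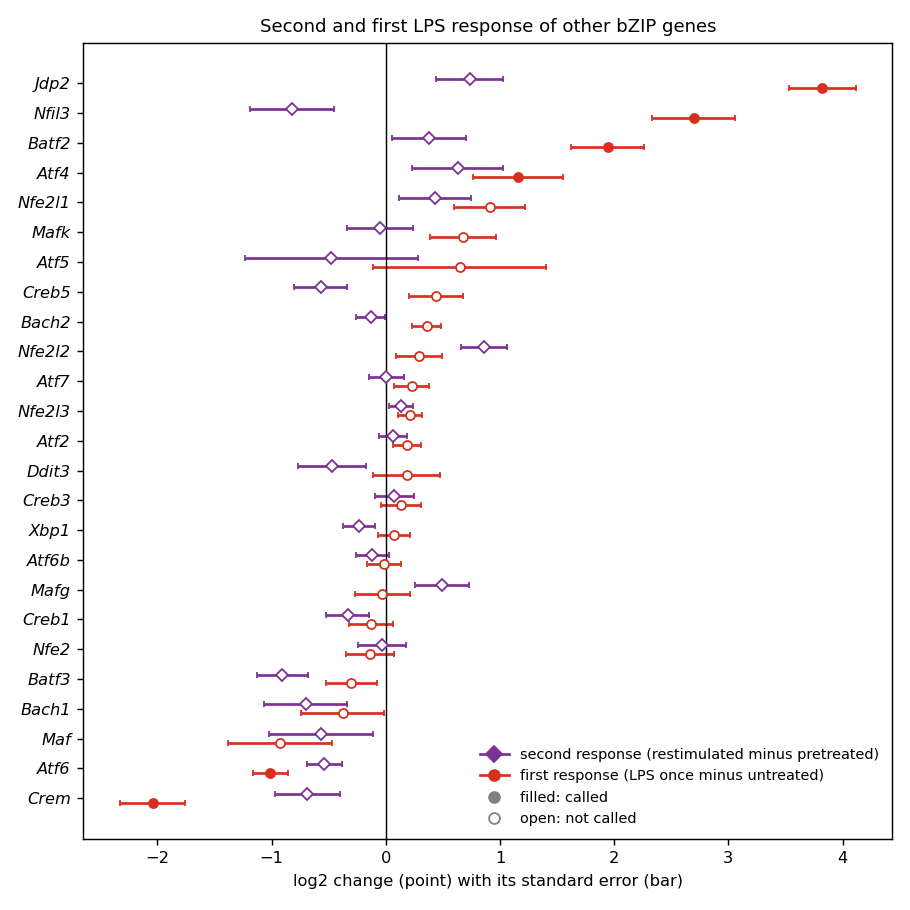
Log2 change of 25 other bZIP genes in the second response (restimulated minus pretreated, diamonds) and the first response (LPS once minus untreated, circles), with standard errors, filled where called. Jdp2 and Nfil3 are highest in the first response, at 3.82 and 2.69, and Crem lowest at -2.04, while no gene is called in the second.

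Of 21 measured MAP kinase components and serum response factors, which act upstream of AP-1 genes, 3 rose and 2 fell after the first LPS, beside 3.90% and 9.10% of all genes, with a median log2 change of -0.02 beside 0.04 over all genes. Map3k8, the kinase that starts the ERK branch after Toll-like receptor signals, rose by 2.10 ± 0.20, and Mapkapk2, a kinase downstream of p38, by 2.02 ± 0.18. The remaining gene that rose, named after its value was seen, was the JNK kinase Map2k4 (1.12 ± 0.22). Mef2c and Mef2d, MADS-box factors that act at the Jun promoter in other settings, fell by -2.99 ± 0.39 and -2.19 ± 0.22. Mapkapk2 had 1965, 2021 and 1451 units in restimulated cells and 567.2, 903.8 and 656.3 in pretreated cells. It rose again in the second response, by 1.35 ± 0.18 (adjusted p = 0.00750), the only one of the 21 called there, though not with those 6 arrays alone (adjusted p = 0.141). Of all genes 0.665% were called higher and 1.29% lower there.

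Mef2c had -1.54 ± 0.39 in the second response (adjusted p = 0.0577, and 0.0466 with the replicate block). It was called without pretreated B (-1.82) or restimulated A (-1.91). By limma 0 of the 21 were called lower in the second response. At an unadjusted p under 0.05, where no share of all genes was counted in any comparison, there were 1 higher and 6 lower. The second response was smaller for Map3k8, by -1.88 ± 0.28 (adjusted p = 0.00807). For Mef2d the difference ran the other way, at 1.55 ± 0.31 (adjusted p = 0.0278), lost without any untreated array, LPS once C or pretreated B (adjusted p = 0.0503 to 0.0758). In this test 1.44% of all genes were called lower and 1.23% higher. Restimulated cells had lower Map3k8 (-2.14 ± 0.20), Mapkapk3 (-1.47 ± 0.15), Map2k4 (-1.45 ± 0.22) and Map2k3 (-1.04 ± 0.21) than LPS once cells. Of all genes 3.18% were called lower and 2.48% higher in that comparison. The Map2k3 change was under 2-fold without LPS once C (-0.90) or restimulated C (-0.89). None of the 21 was called higher there, with 5 higher and 9 lower at an unadjusted p under 0.05. Pretreatment called 0 of 21, beside 0.291% of all genes higher and 0.308% lower, with 1 higher and 4 lower unadjusted. The largest log2 changes were 0.81 ± 0.18 for Map2k6 and -0.79 ± 0.21 for Map2k3.

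Genes with described AP-1 sites were followed as a readout that AP-1 shares with other factors. Of 21 measured, 9 rose and 1 fell after the first LPS, where 3.90% of all genes were called higher and 9.10% lower. Their median log2 change was 1.23, beside 0.04 over all genes. The collagenase Mmp13 rose by 6.39 ± 0.78, Ptgs2, the inducible cyclooxygenase, by 5.43 ± 1.01, the peptide hormone gene Edn1 by 4.58 ± 0.15 and the cytokine Tnf by 4.32 ± 0.29. The gene that fell, Ccnd1 (cyclin D1, -2.04 ± 0.59), was named after its value was seen. With the replicate block 11 rose, with Mmp3 (adjusted p = 0.0296) and Timp1 (0.0319) added. Genes given here for a call with the block alone, other than Ptgs2, were likewise named after their values were seen. In the second response Tnf alone was called, at 3.71 ± 0.29 (adjusted p = 0.000707, and 0.0653 with the 6 arrays alone), and 0 fell. Of all genes 0.665% were called higher and 1.29% lower there. Ptgs2 had 3.26 ± 1.01 there (adjusted p = 0.107, and 0.0446 with the replicate block), and was called without pretreated B (4.15). At an unadjusted p under 0.05, where no share of all genes was counted, 4 of the 21 were higher and 1 lower in the second response.

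Edn1 had 31.6, 23.7 and 20.9 units in restimulated cells, 1068, 966.1 and 1427 in LPS once cells and 30.1, 28.5 and 22.6 in pretreated cells, against 31.4, 36.1 and 29.1 in untreated cells. Only the LPS once arrays stood above the others. The second response of Edn1 was smaller by -4.64 ± 0.21 (adjusted p = 5.59e-06), and those of Mmp13, Mt2 and Mmp14 by -5.79 ± 1.11, -4.58 ± 0.87 and -1.40 ± 0.26. Of the 21, 0 were called the other way. For this difference 1 was higher and 7 lower at an unadjusted p under 0.05, where no share of all genes was counted. In this test 1.44% of all genes were called lower and 1.23% higher. The replicate block added the chemokine gene Ccl2 (-2.98, adjusted p = 0.0252). Each of Mmp13, Mt2 and Mmp14 lost its call without some of the arrays, with adjusted p-values of 0.0503 to 0.0681. Mmp14 was not lower in restimulated than in LPS once cells, at 0.17 ± 0.19 (adjusted p = 0.642), a value given after it was seen. Its group means there were 11.91 and 11.75 on the log2 scale.

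Pretreatment called 2 of these genes higher and 0 lower, beside 0.291% and 0.308% of all genes. At an unadjusted p under 0.05, where no share of all genes was counted, there were 4 higher and 6 lower. With the replicate block 2 were called lower, Ccnd1 (-2.51, adjusted p = 0.0174, against 0.09996 without it) and the growth factor gene Vegfa (-1.73, 0.00549, against 0.128). Mmp14, a membrane-bound metalloproteinase, had 1830, 3069 and 2540 units in pretreated cells, against 887.9, 878.9 and 674.1 in untreated cells, a rise of 1.57 ± 0.19 (adjusted p = 0.00451). Mmp9, the gelatinase, rose by 2.66 ± 0.51 (adjusted p = 0.0489), a call that was lost without any of 9 arrays, at adjusted p-values of 0.0650 to 0.194. Restimulated cells had 1 gene higher than LPS once cells, Mmp9 (2.48 ± 0.51, named after its value was seen), beside 2.48% of all genes. They had 7 lower, beside 3.18% of all genes, among them Edn1 (-4.81 ± 0.15), Mmp13 (-3.31 ± 0.78), Mt2 (-3.15 ± 0.62) and Plaur, the urokinase receptor (-2.76 ± 0.38). With the replicate block 9 were lower, with Ccl2 (adjusted p = 0.0118) and Vegfa (0.00337) added. The Mmp13 call was lost without LPS once B, LPS once C or restimulated A (adjusted p = 0.0539 to 0.0631).

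The table used gave 11 start windows for 9 of the 10 members, 3 of them for Maff. The pattern TGANTCA, with any base at N, was in none of them, where 7.81% of 32817 windows of the same length hold it, searched on both strands. It is wider than the TPA response element, which has C or G at N and whose own share of windows was not counted. The CRE core TGACGT was found in 4 of the 11 windows, 1 each of Fos, Atf3, Batf and Maff, where 7.51% of all windows hold it. The full CRE TGACGTCA, which contains the core, was in a Maff window alone (1.79% of all), and TGACATCA in Jun and another Maff window (3.62%). TATAAA was found in Fos, and in Junb at the start itself (13.6%), an NF-kappaB-type site in Fos, Fosb, Fosl2 and Maff (8.46%), and a CArG box in none (1.63%). The genes with a CRE core include both directions of the first response: Batf and Maff, which rose, and Fos, which fell. A match describes the letters and shows no binding, and a site outside the window was not searched for.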

How the data were processed

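RNA from 12 cultures of mouse macrophages was measured on Affymetrix arrays, and the labels' protocols name TriFast isolation and biotin and PE labelling. Deposited by the authors was a table of linear-scale intensities (1 per probe set and array), a unit read from the values. Not given in the sources used here are the program, background correction, scaling and detection calls behind them.

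It covers 45101 probe sets, including 64 controls. The platform annotation gave 34945 of them 1 symbol, 932 several and 9160 none, and 34741 symbols were updated by Entrez identifier through RefSeq (GRCm38.p6). Each gene took the probe set with the highest mean log2 value, and several-symbol probe sets were left out. Values were used as log2(intensity + 16), which understates changes of dim genes. The number of arrays limits the precision.

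Limma 3.58.1 in R 4.3.3 fitted 4 group means to all 12 arrays (8 residual and 1.71 prior degrees of freedom). P-values were adjusted by Benjamini-Hochberg over 18193 genes in each of 5 contrasts, and a call needed an adjusted p under 0.05 and at least 2-fold. The procedure was tested on simulated data with independent noise on each array. These data held no effect of the replicate letter, so the test does not cover one. Folds are 2 to the power of these log2 differences, and errors are SE of limma.

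Same-letter arrays deviated together from their group means (18 pairs, r of 0.29 to 0.69), so by this check the letters pair the samples. Different letters had r of -0.49 to -0.03 (36 pairs). Deviations cancel within a group, so these negative values go with the positive ones and are no separate support. The fit behind all calls, and those with arrays left out, had no block. The fit with the letter as a replicate block was an alternative. It is given where it changes a call, and for Jun and Fosl2. In the first response it lowered the adjusted p of both and raised those of Fos, Junb, Batf and Maff. Other alternatives were pseudocounts of 1 and 64, quantile normalization, 75th percentile scaling, a mean intensity of at least 50, the 6 arrays of a comparison alone, the second probe set, and leaving out each array. Leaving out all arrays of a letter was chosen after seeing the data.

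The members and gene lists were chosen with earlier results of these data known, so counts over them are descriptions. Shares of all genes were counted for calls only, not at an unadjusted p or by the sign of a change. All members are named. From each other list the text names up to 4 called genes with the largest change in a contrast, or the 2 largest where fewer than 2 were called, and for each member the 2 genes of most similar pattern. Some listed genes were not analysed here. Start windows came from a RefSeq table of GRCm38.p6, from 250 bases before each start to 50 from it on, and matched 9 members.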

Additional observations from a re-analysis of the deposited data

Results flagged for a closer look

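For 2 genes the response to LPS differed between cells that had met it before and cells that had not, by the test of the second minus the first response. Batf rose by 1.14 in the second response and 3.29 in the first, a log2 difference of -2.15. Maff rose by 1.84 in the second response and 3.86 in the first, a log2 difference of -2.02, whose call was lost with the replicate block (adjusted p = 0.0558). The Maff call held under 5 of the 21 alternatives run, and the Batf call under 19 of 21. With 3 arrays a group, no test for a single outlying value was run within groups.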

How the results depend on the processing

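The calls of Batf, Maff and Junb in the first response and of Batf in the level after LPS held under every alternative run. Those of Fos (first response), Batf (second minus first) and Junb and Maff (level after LPS) were lost only without all arrays of a letter, where 8 arrays remain, at adjusted p-values of 0.0505 to 0.0915. The replicate block left 1 member lower in second minus first, losing Maff, and changed no other call of a member.

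A pseudocount of 64, and the 6 arrays alone, each left 0 members higher in the second response. A pseudocount of 1 and quantile normalization each left 1 lower in second minus first. With an array or a letter left out, members lower in the first response numbered 0 to 2, higher in the second response 0 to 2, higher in second minus first 0 to 1, lower in it 0 to 2, and lower in the level after LPS 2 to 5.

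Uncalled changes near 0 turned sign. Under quantile normalization Fosb had -0.0161 in the first response and Jun 0.0403 in the second; under 75th percentile scaling Jun had 0.0448 in the second and Jund -0.026 in second minus first; in the second probe set Jund had 0.12 for pretreatment and 0.24 in the level after LPS. With arrays or a letter left out, the second response was -0.55 to 0.55 for Fos, -0.70 to 0.18 for Jun, -0.0082 to 0.11 for Jund and -0.30 to 0.49 for Atf3. The level after LPS was -0.0856 to 0.73 for Jun and -0.52 to 0.13 for Atf3. Fosb was -0.0067 to 0.10 in the first response, -0.0266 to 0.0934 for pretreatment and -0.0355 to 0.39 in second minus first. Jund was -0.0467 to 0.12 in the first response and -0.13 to 0.15 in second minus first.

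Scaling to the 75th percentile put the median of all genes at 0.21 in the first and 0.14 in the second response, in place of 0.04 and -0.02. Genes called higher and lower were then 209 and 153 in the second response (182 and 146 by quantile normalization), in place of 121 and 234, and 103 and 62 for pretreatment (81 and 63), in place of 53 and 56. In the first response quantile normalization gave 913 and 1142. Fosb and the second probe sets of Jund and Fosl1 are dim, so their changes are poorly resolved.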
